A study of Mus musculus with 4 samples.

Results

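RAB proteins form the largest branch of the RAS superfamily of small GTPases and act as molecular switches that give each membrane compartment its identity. A RAB carries a lipid anchor added by a prenyl transferase, is loaded with GTP on its membrane by an exchange factor, recruits effectors such as tethers and motor adaptors, and is switched off by a GTPase-activating protein, after which a dissociation inhibitor takes it back into the cytosol. In blood cells RABs are known for the biogenesis and release of granules, for the maturation of phagosomes and for the recycling of surface receptors.

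Transcripts of the RAB genes were measured by RNA sequencing in Lin-Kit+ bone-marrow cells of C57BL/6 mice, the fraction that lacks mature lineage markers and carries the Kit receptor. There were 2 libraries of Asxl1-/- cells (KO) and 2 of wild-type cells (WT). No treatment, age or method of deletion is given in the labels, which also do not say whether each library was 1 animal or a pool. A RAB locus was a row of the deposited table, not joined to a neighbour, that carried a name made of Rab, a number and at most 1 letter. Of 56 such rows, 52 had a normalised read count of at least 10 in at least 2 libraries and were tested among 13764 loci in all. Of these 52, 40 held 1 gene and 12 merged the RAB with another gene or transcript name, so that their reads cannot be divided.

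The reads assigned to rows numbered 83586916 and 76688583 in KO and 46597871 and 49764454 in WT. Normalised read counts are these reads multiplied by 1 factor per library. Asxl1 (chromosome 2, 153171874 to 153229743, mm9), which encodes a chromatin regulator, had normalised read counts of 146 and 135 in KO, against 9742 and 9472 in WT, and 0 RAB loci lay within 10 Mb of it. Kit, which defines the sorted fraction, had 18483 and 18889 in KO and 17739 and 16149 in WT and did not pass the test (adjusted p = 0.131). Replicate 1 of each genotype had high Xist (89290 in KO, 103006 in WT) and replicate 2 low Xist (147 in KO, 2123 in WT). Eif2s3y, on the Y chromosome, had 3.03 and 11.7 in replicate 1 of KO and WT. In replicate 2 it had 7647 and 6581. The replicate number thus went with sex-linked expression in both genotypes, and the libraries of a genotype were not 1 animal measured again. The main test has no term for this. Markers of other cell types moved with the genotype. Of 15 neutrophil markers tested, 14 were higher in KO and 0 lower, and their summed normalised read count was 2211704 and 2083822 in KO, against 1097776 and 1225131 in WT. The list includes granule genes such as Ngp, Ltf and Camp, and the stage of the cells that carry these transcripts was not tested.

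The RAB family as a whole moved little, and its called members were mostly higher in KO. At an adjusted p under 0.05 in limma, with adjustment over all 13764 loci, 11 of the 52 RAB loci were higher in KO (21.2%) and 3 were lower (5.77%), while 38 did not pass. Of all tested loci, 11.9% were called higher, 8.97% lower and 20.9% in either direction. The median log2 fold change was 0.08 over the RAB loci and -0.01 over all tested loci, and 34 of the 52 values were positive. Only 5 RAB loci (9.62%) had a fitted change of 1.5-fold or more, against 19.2% of all loci, and 3 of those 5 were called (5.77% of the RAB loci, against 9.1% of all loci). Libraries of the genotypes did not overlap at 32 RAB loci (61.5%), 24 of them higher and 8 lower in KO, against 66.1% of all loci, of which 32.5% were higher and 33.6% lower. Fits that left out a library had 1 sample in that group, which is assumed to vary like the other group. Without WT replicate 1 only Rab3d was called among the RAB loci, and without WT replicate 2 only Rab3d and Rab4a, while over all loci the calls fell to 603 and 809 higher and 266 and 272 lower. In these fits the log2 fold change of Rab37 was 0.41 and 0.42 and that of Rab27a 0.31 and 0.30, near the full fit. Others moved more, Rab20 from 0.87 to 0.70 and 1.03, and Rab24 from 0.32 to 0.38 and 0.27. Without KO replicate 1 the calls of Rab20 and Rab5b were lost, and without KO replicate 2 those of Rab20, Rab31, Rab7 and Rab19. With upper-quartile scaling of the reads in edgeR, 7 RAB loci were higher and 4 lower, and over all loci 1384 were higher and 1833 lower, against 1640 and 1235 in limma. In bulk samples such as these, fewer cells of a type and less RNA per cell cannot be told apart.

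**Figure D1:**
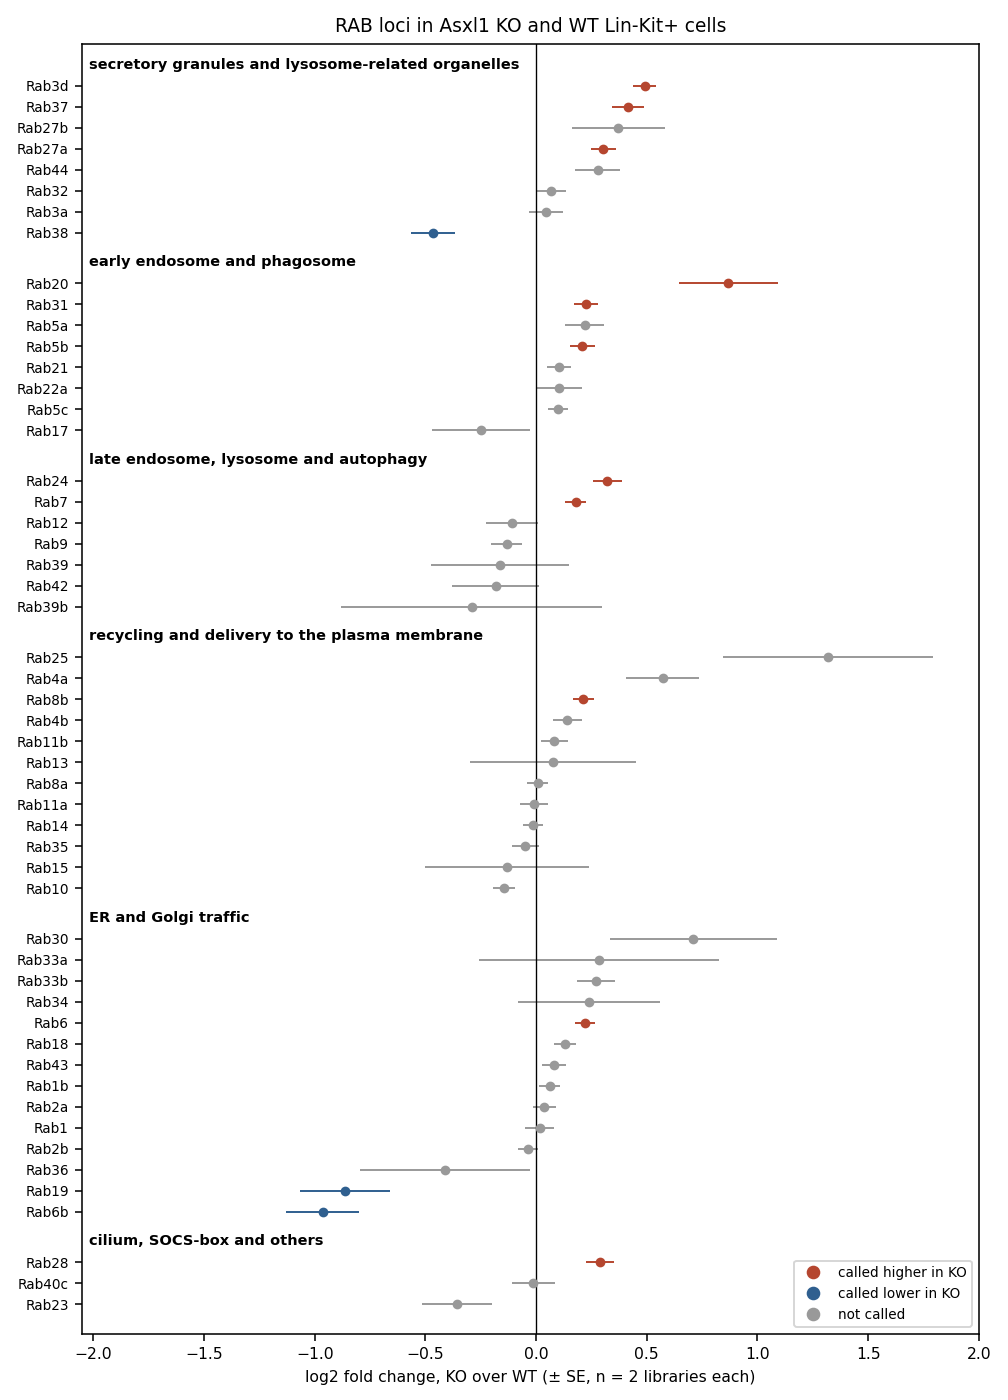
Log2 fold change of KO over WT (x axis) for each of the 52 RAB loci (rows), grouped by the main compartment of the protein, with bars for the SE from limma and n = 2 libraries in each group. The 11 loci called higher and the 3 called lower lie between 0.87 and -0.96, and the widest bars belong to the loci with few reads.

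The RABs of secretory granules and lysosome-related organelles, the storage compartments of granulocytes, mast cells and pigment cells, included 3 loci higher and 1 lower in KO among 8 tested, beside 11.9% higher and 8.97% lower over all loci. Their summed normalised read count was 65547 and 58544 in KO, against 51132 and 50517 in WT, and their median log2 fold change was 0.29. Most of each sum came from Rab44, which was not called, with 38054 and 30379 in KO and 28278 and 27825 in WT. The neutrophil markers given above moved in the same direction, and their part in these values was not tested.

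Rab3d (chromosome 9, 21711954 to 21722565, mm9) encodes a RAB of the regulated secretory granules of exocrine and blood cells. Its normalised read count was 8072 and 8434 in KO, against 5928 and 5822 in WT. Both KO libraries were above both WT libraries. The log2 fold change was 0.49 ± 0.05 (SE, n = 2 each; adjusted p = 0.00345 in limma), with 0.45 within the first replicate pair and 0.53 within the second. Rab3d was called under each of 14 alternative settings of the processing.

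Rab37 (chromosome 11, 114952744 to 115023554), another RAB found on secretory granules, had 2146 and 2048 in KO and 1565 and 1582 in WT. The groups were separate, with a log2 fold change of 0.41 ± 0.07 (SE, n = 2 each; adjusted p = 0.0139 in limma). Rab27a (chromosome 9, 72892671 to 72945399) encodes the RAB that docks granules at the plasma membrane and is lost in Griscelli syndrome. It had 10257 and 11104 in KO, against 8658 and 8629 in WT, with a log2 fold change of 0.30 ± 0.06 (adjusted p = 0.0167 in limma).

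Rab38 (chromosome 7, 95578782 to 95640082) went the other way. Together with Rab32 it directs cargo to melanosomes and platelet dense granules. Rab38 had 631 and 665 in KO, against 907 and 883 in WT, which left KO at 72.4% of the WT mean and gave a log2 fold change of -0.47 ± 0.10 (adjusted p = 0.0256 in limma). Rab32 itself did not pass the test, with 4103 and 3744 in KO and 3760 and 3714 in WT.

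The remaining members of the granule group did not pass the test with genotype as the only term. Rab44, a large atypical RAB with EF-hand motifs, had 38054 and 30379 in KO, against 28278 and 27825 in WT, and its log2 fold change of 0.28 ± 0.10 had an adjusted p of 0.105 in limma. It was called with the replicate number as a block (adjusted p = 0.0434 in limma), by DESeq2 (adjusted p = 0.022) and without KO replicate 2, where the log2 fold change was 0.44 (adjusted p = 0.00191 in limma), against 0.12 without KO replicate 1. Both KO values were above both WT values, but the KO libraries differed from each other by more than the distance between the lower of them and WT. Rab27b, a close relative of Rab27a, had 622 and 419 in KO and 421 and 370 in WT, and the groups overlapped. It was called without KO replicate 2 (adjusted p = 0.0299 in limma). Rab3a, known from synaptic vesicles and sharing its row with other genes, had 1663 and 1751 in KO and 1616 and 1693 in WT. Rab44, Rab27b, Rab32 and Rab3a are given in full here because of their place in the group, a choice made after their values were seen.

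**Figure D2:**
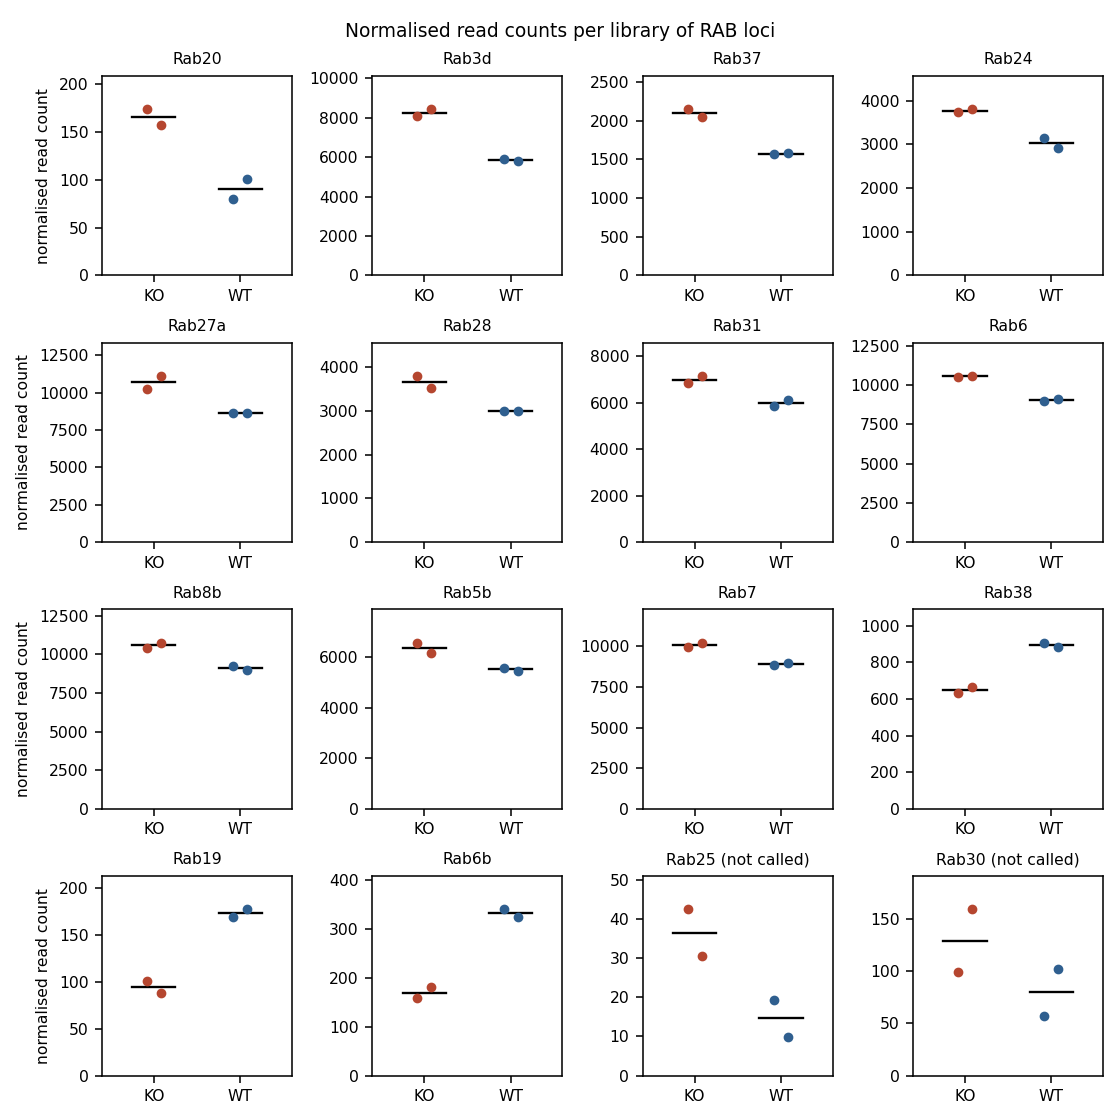
Normalised read count (y axis, from 0) in each KO and WT library, 1 panel per RAB locus, with the mean of 2 libraries as a line. The panels hold the 14 called loci and the 2 loci, Rab25 and Rab30, with a change of at least 1.5-fold that were not called; in the 14 called panels the KO and WT points are separate.

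Among 8 RABs of the early endosome and phagosome, 3 were higher in KO and 0 lower (11.9% and 8.97% over all loci), and the median log2 fold change was 0.16. The largest was Rab20 (chromosome 8, 11453976 to 11480241), which acts in phagosome maturation and whose row also holds the transcript BC030398. It had 174 and 158 in KO, against 80.3 and 101 in WT. The counts were low but separate, with a log2 fold change of 0.87 ± 0.22 (adjusted p = 0.0436 in limma). The call was lost with limma-voom (adjusted p = 0.0518), without the filter on low values (adjusted p = 0.0621) and when any library was left out.

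Rab31 (chromosome 17, 66001065 to 66122092), which carries receptors between the trans-Golgi network and endosomes, had 6836 and 7154 in KO and 5863 and 6110 in WT. The groups were separate at a log2 fold change of 0.22 ± 0.05 (adjusted p = 0.0359 in limma). Rab5b, 1 of the 3 RAB5 forms that drive early endosome fusion, had a log2 fold change of 0.21 ± 0.06 (adjusted p = 0.0494 in limma). With upper-quartile scaling Rab31 (adjusted p = 0.0535 in edgeR) and Rab5b (adjusted p = 0.1 in edgeR) were not called, and limma-voom and the unfiltered fit also lost Rab5b. The other RAB5 loci did not pass, at 0.22 ± 0.09 for Rab5a (adjusted p = 0.129 in limma) and 0.10 ± 0.05 for Rab5c (adjusted p = 0.175 in limma). The not-called members, Rab5a, Rab21, Rab22a, Rab5c and Rab17, ranged from 0.22 for Rab5a to -0.25 for Rab17.

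In the late endosome, lysosome and autophagy group 2 of 7 loci were higher in KO and 0 lower (11.9% and 8.97% over all loci). The median log2 fold change of the group was -0.13. Rab7 (chromosome 6, 87950428 to 87995226), the RAB that takes late endosomes and phagosomes to the lysosome, had a log2 fold change of 0.18 ± 0.05 (adjusted p = 0.0445 in limma), the smallest among the called loci. It was not called with upper-quartile scaling (adjusted p = 0.0623 in edgeR), with limma-voom or without the filter. Rab24 (chromosome 13, 55420583 to 55423341), linked to autophagy, had 3744 and 3799.9 in KO, against 3138 and 2905 in WT. Its log2 fold change was 0.32 ± 0.06 (adjusted p = 0.0221 in limma). In a later annotation 62.4% of the exon bases of Rab24 overlap Prelid1 on the other strand, and the handling of strand is not given in the sources used here, so the reads of the pair may not be separable. The row of Prelid1 and Mxd3 itself had 11308 and 11835 in KO and 11971 and 11132 in WT. The not-called members of this group, Rab12, Rab9, Rab39, Rab42 and Rab39b, ranged from -0.11 to -0.29. The row listed as Rab42 also carries the name Rab7b.

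Recycling RABs and those that deliver cargo to the plasma membrane numbered 12, and 1 was called. That locus was higher in KO (8.33% of the group, against 11.9% over all loci), and 0 were lower (8.97% over all loci). Rab8b (chromosome 9, 66691470 to 66767512), which takes vesicles from the trans-Golgi network to the surface, had 10424 and 10753 in KO, against 9261 and 9007 in WT, with a log2 fold change of 0.21 ± 0.05 (adjusted p = 0.0293 in limma). Its row also holds the transcript AK160964. Its relative Rab8a had 8335 and 8013 in KO and 8106 and 8159 in WT, and the groups overlapped.

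Rab25, a RAB11 relative of epithelia, had 42.4 and 30.5 in KO and 19.4 and 9.76 in WT. The groups were separate, but at a log2 fold change of 1.32 ± 0.47 the adjusted p was 0.099 in limma, and leaving out 1 library moved the value between 0.86 and 1.78. Rab4a, which returns receptors rapidly to the surface, had 913 and 1027 in KO, against 559 and 757 in WT, and missed the threshold with a log2 fold change of 0.57 ± 0.17 (adjusted p = 0.0577 in limma). It was called with the replicate number as a block (adjusted p = 0.0175 in limma), and leaving out 1 library moved the log2 fold change between 0.35 and 0.79. Rab4a was singled out after its values were seen. The other not-called members of the group, Rab4b, Rab11b, Rab13, Rab8a, Rab11a, Rab14, Rab35, Rab15 and Rab10, ranged from 0.14 for Rab4b to -0.14 for Rab10.

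The group of the endoplasmic reticulum and Golgi held 14 loci, of which 1 was higher in KO (7.14%) and 2 were lower (14.3%). Over all loci the shares were 11.9% and 8.97%. The 2 lower loci had the largest 2 falls of the called RAB loci. Rab6b (chromosome 9, 103014403 to 103087600) is the form of RAB6 best known from neurons. It had 159 and 180 in KO, against 339 and 323 in WT, so that KO stood at 51.2% of WT. This gave a log2 fold change of -0.96 ± 0.16 (adjusted p = 0.0132 in limma), with -1.09 within the first replicate pair and -0.84 within the second.

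Rab6, the widespread form that runs retrograde traffic through the Golgi, differed in the other direction. Its row (chromosome 7, 107697630 to 107789782) also holds Mrpl48, and had 10543 and 10586 in KO, against 8975 and 9140 in WT. The log2 fold change was 0.22 ± 0.05 (adjusted p = 0.0228 in limma). Rab19 (chromosome 6, 39331426 to 39340378), a less studied RAB of the Golgi, had 101 and 88.3 in KO, against 168 and 177 in WT, with a log2 fold change of -0.86 ± 0.20 (adjusted p = 0.0337 in limma). Without the filter on low values its adjusted p was 0.0501.

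Rab30, a Golgi RAB, had 99.3 and 159 in KO and 57.0 and 102 in WT. The groups overlapped, and its log2 fold change of 0.71 ± 0.38 had an adjusted p of 0.225 in limma. Leaving out 1 library moved that value between 0.29, without WT replicate 1, and 1.13, without WT replicate 2. The other 10 loci of the group, Rab33a, Rab33b, Rab34, Rab18, Rab43, Rab1b, Rab2a, Rab1, Rab2b and Rab36, did not pass and ranged from 0.28 for Rab33a to -0.41 for Rab36. Rab1 and Rab1b, which tether vesicles that leave the endoplasmic reticulum, had log2 fold changes of 0.02 ± 0.06 and 0.06 ± 0.05.

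In the small remaining group, Rab28 (chromosome 5, 42016214 to 42099394), a RAB of cilia and photoreceptors, was higher in KO. It had 3801 and 3537 in KO, against 3009.9 and 2994 in WT, with a log2 fold change of 0.29 ± 0.06 (adjusted p = 0.0283 in limma). With upper-quartile scaling its adjusted p was 0.0642 in edgeR. Rab23, a ciliary RAB that restrains Hedgehog signalling in the mouse, was not called at -0.36 ± 0.16 (adjusted p = 0.159 in limma; 0.0435 without KO replicate 2), and Rab40c, a RAB with a SOCS box, was not called at -0.01 ± 0.10. The 4 rows under the filter were Rab26, Rab3b, Rab3c and Rab40b, whose normalised read counts stayed between 0 and 9.85 in every library. Rab3c had 0 reads in replicate 1 of each genotype, which allows a normalised read count of up to 2.27 in KO and 3.89 in WT, by counting error alone.

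Promoters are shown for the RAB6 pair, whose loci were called in opposite directions, and for Rab20, which had the largest called rise. RefSeq sequence of build GRCm38.p6, from 250 bases before to 50 after the start, was found on the chromosome of the row for 42 of the 52 loci. The lines run 5′ to 3′ along the gene. Capitals mark the motif GAGGAAG, the motif CCAAT or the motif CACGTG on either strand, and a match on the other strand appears as its reverse complement. In Rab6a, the current name of Rab6, the first GAGGAAG match shares 1 base with a CCAAT match.
Rab6a promoter, chr7:100607336-100607635, plus strand: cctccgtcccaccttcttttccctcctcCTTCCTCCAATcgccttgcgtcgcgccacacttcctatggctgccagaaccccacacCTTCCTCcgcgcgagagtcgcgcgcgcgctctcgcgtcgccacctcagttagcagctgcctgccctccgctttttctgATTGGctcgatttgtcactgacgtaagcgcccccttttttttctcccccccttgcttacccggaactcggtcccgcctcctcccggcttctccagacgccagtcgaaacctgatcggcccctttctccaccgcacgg
Rab6b promoter, chr9:103111824-103112123, plus strand: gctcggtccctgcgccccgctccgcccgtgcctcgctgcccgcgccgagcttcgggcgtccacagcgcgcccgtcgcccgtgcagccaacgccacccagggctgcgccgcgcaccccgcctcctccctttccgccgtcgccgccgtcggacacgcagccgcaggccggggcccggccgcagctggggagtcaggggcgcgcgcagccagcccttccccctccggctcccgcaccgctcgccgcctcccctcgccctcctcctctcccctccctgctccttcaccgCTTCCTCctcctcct
Rab20 promoter, chr8:11478591-11478890, minus strand: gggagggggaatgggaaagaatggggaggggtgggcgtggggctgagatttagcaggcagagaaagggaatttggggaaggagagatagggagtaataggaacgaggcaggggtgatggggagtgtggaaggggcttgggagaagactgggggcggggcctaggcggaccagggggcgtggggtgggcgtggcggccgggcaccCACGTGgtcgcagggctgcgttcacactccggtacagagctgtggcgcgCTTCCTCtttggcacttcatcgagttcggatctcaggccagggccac

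GAGGAAG occurred in 8 of the 42 RAB promoters and in 13.5% of all 27025 promoters, and it was present in both Rab6a and Rab6b. CCAAT occurred in 45.2% of RAB promoters and in 37.9% of all, and among the loci called higher in 6 of 10, those of Rab28, Rab31, Rab5b, Rab6a, Rab7 and Rab8b. CACGTG occurred in 5 RAB promoters (11.9%), Rab20 and Rab24 among them, and in 7.24% of all. Of the other motifs searched on both strands, CCGGAAG occurred in 11.9% of RAB promoters and 9.12% of all, TTGCNNAA in 2.38% and 10.8%, and TATAAA in 4.76% and 14.2%. RAB promoters had a median G and C content of 63% and a median ratio of observed to expected CpG of 0.76, against 52.7% and 0.39 over all promoters. These sets are unlike, because the RAB promoters are of loci that passed the filter and the 27025 were not limited to tested loci. The motif shares above have the same limit. The matches are letters in a window and were not tested as binding sites.

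Close relatives within the family were set against each other. The ratio of their reads was taken within each library, which removes the scaling of the libraries. Of 14 such pairs, the ratio was higher in both KO libraries at 5, lower at 3 and overlapping at 6. The pairs were picked by hand. Values of single loci did not overlap at 66.1% of all tested loci, and no such share is given for ratios of other pairs. In 8 of the pairs, among them Rab6b over Rab6 and Rab3d over Rab3a, a row merged with another gene enters the ratio, which is then a ratio of rows and not of the relatives alone. Among the 6 pairs with 1 gene per row the ratio was higher at 2, lower at 1 and overlapping at 3. With 2 libraries against 2, the smallest exact two-sided permutation p is 0.333, so no ratio could pass a threshold of 0.05.

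The widest gap was that of Rab6b over Rab6, with ratios of 0.0151 and 0.0170 in KO, against 0.0378 and 0.0354 in WT. The row in the denominator also holds Mrpl48. Rab38 over Rab32 had 0.154 and 0.178 in KO and 0.241 and 0.238 in WT. Rab3d over the merged row of Rab3a had 4.85 and 4.82 in KO, against 3.67 and 3.44 in WT. The log2 ratio of KO over WT was -1.19 for Rab6b over Rab6, -0.54 for Rab38 over Rab32 and 0.45 for Rab3d over Rab3a. In each of these pairs the second row was not called or was called in the other direction. Rab8b over Rab8a had 1.25 and 1.34 in KO and 1.14 and 1.10 in WT, and Rab4a over Rab4b had 0.330 and 0.370 in KO and 0.230 and 0.292 in WT. For Rab27b over Rab27a the ratios overlapped, with 0.0607 and 0.0377 in KO and 0.0486 and 0.0428 in WT.

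**Figure D3:**
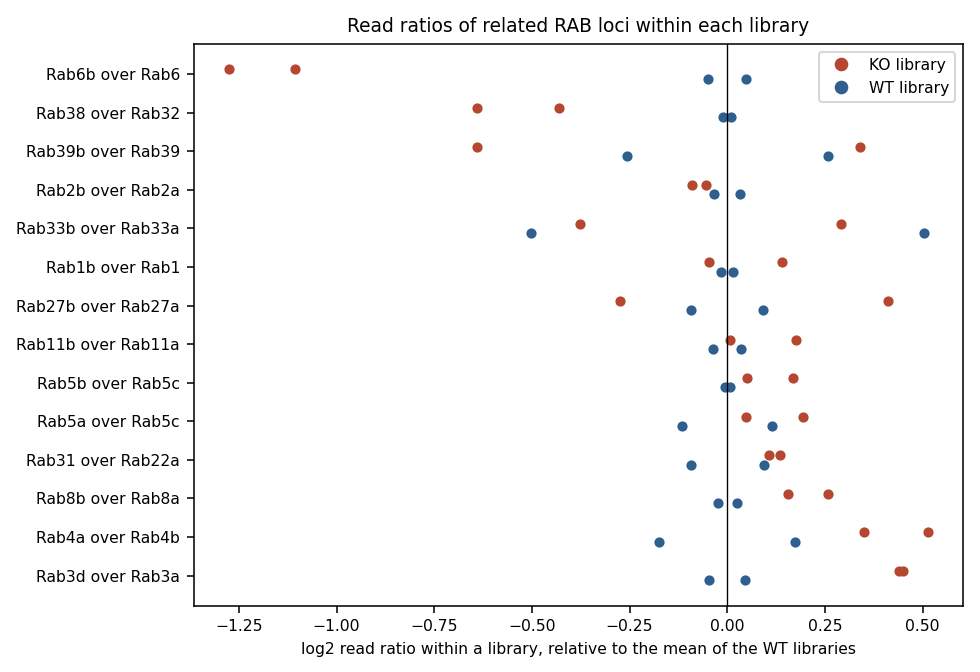
Ratio of reads between 2 related RAB loci within each library, on a log2 scale relative to the mean of the WT libraries (x axis), for 14 pairs (rows), with 1 point per KO or WT library. Rab6b over Rab6 lies furthest to the left and Rab3d over Rab3a has its KO points close together, well to the right of its WT points.

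Levels were compared between genes per kilobase of exon, over the 40 loci not merged with another gene. The median normalised read count per kilobase was 671 in KO and 615 in WT. Rab44 was the highest, with 7513 and 5998 in KO, against 5583 and 5493 in WT, followed by Rab5c with 4522 and 4611 in KO and 4298 and 4234 in WT. In WT the next in order were Rab1b, Rab7, Rab2a, Rab1 and Rab27a. At the low end stood Rab36, Rab15, Rab33a, Rab25 and Rab30, and Rab30 had 10.3 and 16.5 in KO and 5.91 and 10.6 in WT. Of the 39 pairs of neighbours in the WT order, 13 had WT libraries that overlapped and so did not differ beyond their spread. Of the called loci without a merged gene, Rab6b and Rab19 were low, at 65.8 and 109.6 per kilobase as WT means, and Rab27a and Rab7 were among the 7 highest.

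**Figure D4:**
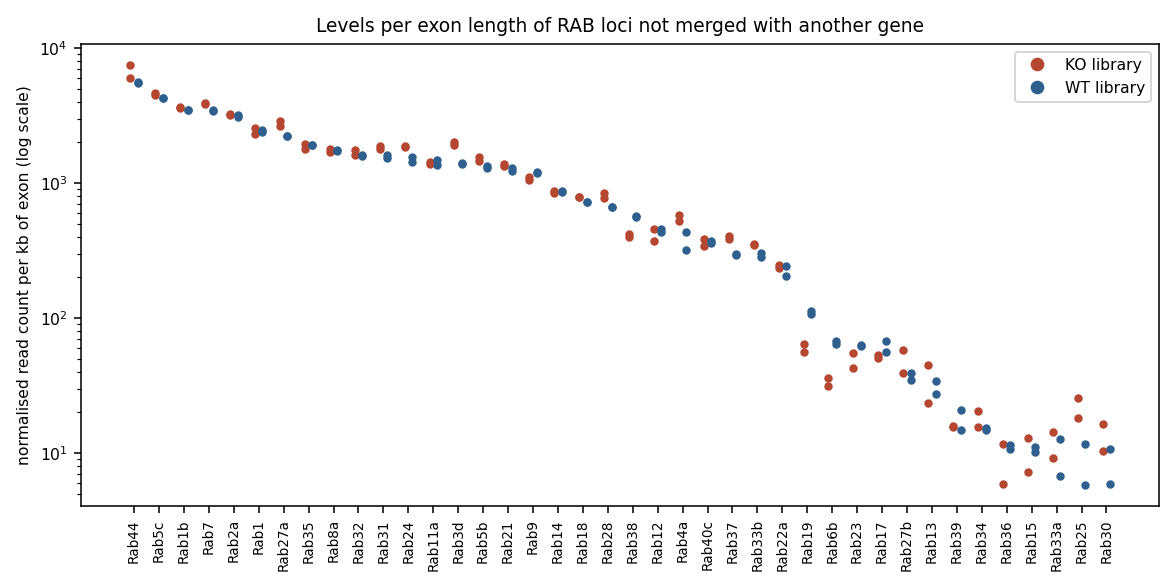
Normalised read count per kilobase of exon on a log scale (y axis) for the 40 RAB loci not merged with another gene (x axis, ordered by the WT mean), with 1 point per KO or WT library. Levels run over about 3 orders of magnitude, from Rab44 at the left to Rab30 at the right, while KO and WT points of a locus mostly lie close together.

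Partners of the RABs were counted from 4 lists. Some partner rows also hold other genes, and a call is then of the row and not of the partner alone. Among the called ones were the rows of Rgp1 (with Gba2 and Creb3), Tbc1d8 (with Rpl31) and Sgsm3 (with Mkl1). Of 8 genes for prenylation and membrane cycling (the prenyl transferase subunits, the escort proteins and the dissociation inhibitors among them), 0 were called in either direction by limma, 2 were higher by DESeq2, and the median log2 fold change was -0.02. Exchange factors, which load RABs with GTP, had 11 of 36 higher (30.6%) and 1 lower (2.78%), with a median of 0.11. Proteins with a TBC domain, which switch RABs off, had 6 of 36 higher (16.7%) and 2 lower (5.56%), with a median of 0.07. Effectors had 9 of 36 higher (25%) and 3 lower (8.33%), with a median of 0.11. Beside these shares stand the 11.9% higher and 8.97% lower of all tested loci, and no test of the difference was made. Without WT replicate 1 the called higher were 3 exchange factors, 3 TBC-domain proteins and 4 effectors, and without WT replicate 2 they were 6, 4 and 4 of these lists in the same order.

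Rin2, an exchange factor for RAB5, had 1253 and 1324 in KO, against 559 and 717 in WT, with a log2 fold change of 1.02 ± 0.14 (adjusted p = 0.0072 in limma). Dennd1c, of the DENN family of exchange factors, had 3936 and 3894 in KO, against 2529 and 2583 in WT, and changed by 0.61 ± 0.06 (adjusted p = 0.00249 in limma). Dennd2a and Dennd3, of the same family, were higher by 0.88 ± 0.23 and 0.53 ± 0.08. The lower exchange factor was Rab3ip, also called Rabin8, which activates RAB8, at -0.41 ± 0.10.

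Among the GTPase-activating proteins, Tbc1d2, which acts on RAB7, was higher by 0.59 ± 0.07 and Evi5, which binds RAB11, by 0.55 ± 0.07. Tbc1d2b and Sgsm3, whose row also holds Mkl1, were higher by 0.40 ± 0.05 and 0.35 ± 0.05. Tbc1d10c was lower at -0.29 ± 0.05 and Rabgap1, whose row also holds Strbp, at -0.26 ± 0.06.

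Effectors of the granule RABs went in both directions. Sytl1, a RAB27 effector, had 2111 and 1362 in KO, against 982 and 933 in WT, with a log2 fold change of 0.82 ± 0.20 (adjusted p = 0.036 in limma). Sytl4, also called granuphilin and also a RAB27 effector, had 212 and 301 in KO, against 618 and 513 in WT, at -1.15 ± 0.21 (adjusted p = 0.0161 in limma). Unc13d, which primes granules for fusion with RAB27A, had 9093 and 9371 in KO, against 6557 and 6510.4 in WT, and rose by 0.50 ± 0.05 (adjusted p = 0.00266 in limma). Unc13d was named after its values were seen.

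Of the other effectors, Optn, the RAB8 effector optineurin, had 3016 and 3001 in KO, against 2013 and 1886 in WT, at 0.63 ± 0.07 (adjusted p = 0.0037 in limma). Of the 5 Rab11fip genes, which encode RAB11 effectors, Rab11fip1 was higher by 0.59 ± 0.07 and Rab11fip3 had 174 and 144 in KO, against 413 and 385 in WT, at -1.33 ± 0.17 (adjusted p = 0.00623 in limma). Rab11fip2 (-0.05 ± 0.11), Rab11fip4 (0.74 ± 0.30) and Rab11fip5 (-0.05 ± 0.12) were not called. Rilpl2 was higher by 0.52 ± 0.07, and Bicd1, which links RAB6 vesicles to dynein, was lower at -0.78 ± 0.19.

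**Figure D5:**
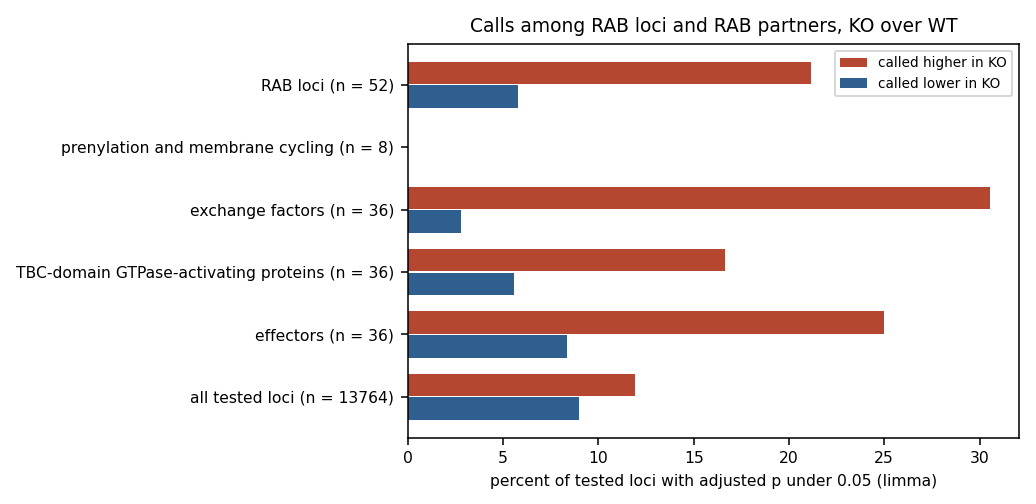
Percent of tested loci called higher or lower in KO by limma at an adjusted p under 0.05 (x axis) for the RAB loci, the 4 lists of RAB partners and all tested loci (rows). Exchange factors have the highest share called higher, 30.6%, and genes for prenylation and membrane cycling have no calls.

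Some markers of cell types that Lin-Kit+ cells could be mixed with or develop into changed beside these loci. The counts below stand against 11.9% higher and 8.97% lower over all tested loci, and the difference was not tested. Erythroid markers had 5 of 9 higher and 0 lower, with sums of 78982 and 90480 in KO, against 53273 and 59887 in WT. Mast cell and basophil markers had 0 of 10 higher and 5 lower, with sums of 19861 and 17878 in KO and 20528 and 20330 in WT. A large part of these sums came from Hdc, with 11949 and 9150 in KO and 8337 and 8368 in WT. Hdc was not called, and its log2 fold change of 0.32 was opposite in sign to those of the 5 lower markers. Monocyte and macrophage markers had 2 of 11 higher and 4 lower, megakaryocyte and platelet markers 1 of 10 higher and 0 lower, B lineage markers 0 of 8 higher and 3 lower, and T and NK lineage markers 0 of 8 higher and 2 lower. Of 6 progenitor markers, Cd34 and Flt3 were lower and 0 were higher. No marker gene that was matched to a row was at 0 in all libraries. The part of these markers in the RAB values was not tested.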

How the data were processed

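RNA from Lin-Kit+ cells of 2 KO and 2 WT libraries was extracted with Trizol, per the labels' protocols. Reads were aligned with STAR 2.3.1t to mm9, per the submitters' processing notes; the sources used here do not name the counter, the annotation, the use of strand or the tool for scaling. Each value of the deposited table is a signal, which the authors made by multiplying whole reads by 1 factor per library, as the values show: 100% are whole multiples of the value of 1 read (0.758 and 0.825 in KO, 1.30 and 1.22 in WT) within 0.001 read ("whole reads recovered").

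Loci were tested with limma 3.58.1 (R 4.3.3, mean-variance trend) on log2(value + 1), a scale that understates the change of low loci. Genotype was the only term, and Benjamini-Hochberg adjusted p-values were called under 0.05. On the recovered reads, the count test of edgeR 4.0.16 with TMM scaling called 1619 loci higher and 1220 lower, against 1640 and 1235 in limma. DESeq2 1.42.0, limma-voom, other scalings, pseudocounts, filters, the replicate block and leaving out each library were alternatives.

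The members and lists were chosen with earlier results of these data known. By the naming rule, the 12 called RAB loci of largest change, and uncalled ones changed 1.5-fold or more, have values per library; other RAB loci have log2 fold changes or ranges, and each partner list names up to 4 called genes per direction. Exceptions are identified, apart from loci shown beside a close relative (Rab32, Rab3a, Rab8a) or sharing reads with one (Prelid1). Exon lengths and overlaps came from GENCODE of a later build, used for no coordinates. In the lists Ric1, Ly6g and Hba-a1 were not matched, and Mlph, Myrip, Exph5 and Sytl5 were under the filter. No label says that replicates were separate animals. P-values measure the spread between these libraries, and counting limits cover counting error only.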

Additional observations from a re-analysis of the deposited data

Results flagged for a closer look

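Rows that join 2 neighbouring loci were outside the comparisons, and 42 of them carry a RAB name. One, which joins Vbp1 to the row of Rab39b and BC042783, was flagged because both KO libraries exceeded both WT libraries and its counting interval lay above 1. It held 11 reads in KO and 1 read in WT. Taken with the scaling factor of each library, the ratio of KO over WT was 6.92. Its exact 95% interval of 1.01 to 298 is not adjusted for the 42 rows examined. At this depth the size of the difference is not determined.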

How the results depend on the processing

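Rab3d was called in each of 14 alternatives, with adjusted p between 7.83e-12 and 0.0257. Leaving out 1 library gave 1 to 10 RAB loci higher and 0 to 3 lower: without WT replicate 1 Rab3d alone was called, and without WT replicate 2 Rab3d and Rab4a. Over all loci these fits gave 603 to 1714 higher and 266 to 1542 lower; exchange factors had 3 to 11 higher and 0 to 1 lower, GTPase-activating proteins 3 to 8 and 0 to 2, effectors 4 to 10 and 1 to 3, and prenylation genes 0 to 2 and 0 to 1. With upper-quartile scaling 7 RAB loci were higher and 4 lower, against 11 and 3, so 63.6% of the calls were higher, against 78.6%; the RAB median was 0.038, exchange factors had 2 lower, and over all loci 43.0% of the calls were higher, against 57.0%. Under it Rab28 (adjusted p = 0.0642), Rab31 (0.0535), Rab5b (0.1) and Rab7 (0.0623) were no longer called in edgeR, Rab10 was called lower (0.0241), and the uncalled Rab3a (-0.0083), Rab2a (-0.016), Rab1 (-0.036) and Rab8a (-0.046) reversed. The median log2 fold change over all loci was -0.058 under this scaling, against -0.0062 in limma, so the scaling moved all loci down together. DESeq2 called 2 prenylation genes higher, and the cause of that was not tested. Leaving out libraries also reversed uncalled loci, whose log2 fold changes then ranged from -0.061 to 0.093 for Rab1, -0.071 to 0.052 for Rab11a, -0.26 to 0.036 for Rab12, -0.39 to 0.55 for Rab13, -0.031 to 0.0062 for Rab14, -0.54 to 0.28 for Rab15, -0.020 to 0.23 for Rab22a, -0.13 to 0.70 for Rab33a, -0.11 to 0.014 for Rab35, -0.90 to 0.071 for Rab36, -0.41 to 0.081 for Rab39, -0.760 to 0.18 for Rab39b, -0.10 to 0.078 for Rab40c, -0.41 to 0.041 for Rab42 and -0.021 to 0.035 for Rab8a.

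With the replicate number as a block, 13 RAB loci were higher and 3 lower, Rab4a (adjusted p = 0.0175 in limma) and Rab44 (0.0434) being added and no call lost. The numbers are not stated to pair the libraries, but they went with Xist and Eif2s3y in both genotypes. The block thus takes up sex-linked differences too, which the main test leaves in the spread. Rab9, Rab33a and Rab39b lie on chromosome X and were called in no setting. Deviations of replicate 1 from the group mean correlated between genotypes at r = 0.25 over 13764 loci. With merged loci left out, 8 were higher and 3 lower. Called RAB loci had at least 62 reads in every library, and the sparsest tested RAB locus had 6.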

Other observations

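Genes related to RABs but outside the naming rule were looked at after the results were known. Efcab4b, which encodes a calcium-binding RAB protein, had 792 and 771 in KO, against 517 and 467 in WT, with a log2 fold change of 0.67 ± 0.11 (adjusted p = 0.0132 in limma). The RAB-like genes Rabl2 and Rabl5, both tied to cilia, were lower, at -0.56 ± 0.15 (adjusted p = 0.0466 in limma) and -0.54 ± 0.14 (adjusted p = 0.0481 in limma). Rab7l1, an older name of the gene for RAB29, had 653 and 500.1 in KO and 817 and 749 in WT and was not called (adjusted p = 0.0888 in limma). Ran, the GTPase of nuclear transport, was lower at -0.25 ± 0.05 (adjusted p = 0.0224 in limma). Of 27 ARF, ARL and SAR loci, 0 were called higher and 4 lower, with a median log2 fold change of -0.05. Over all tested loci 11.9% were higher and 8.97% lower. Of 15 RAS, RAP and RAL loci, 2 were higher (13.3%) and 1 lower (6.67%), with a median of -0.07. Whether these families differ from the RAB loci was not tested.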
